A study of Homo sapiens with 2 samples.

Results

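DNA repair and damage response genes form the subject of these results: 58 genes were taken by name, of which 57 had at least 1 exon in the table of skipped exons, while LIG4 is not analysed here. Together they held 631 distinct exons of the 67154 listed for 11965 genes, and these exons took part in 1076 of 113456 events. The study asked which exons lose or gain inclusion when splicing is perturbed. Polyadenylated RNA came from HEK293T cells, a human embryonic kidney line that carries the large T antigen of SV40, and was sequenced from 1 library of cells with no treatment and 1 library of cells kept for 6 h in medium with 300 µg/mL amiloride, a diuretic that blocks sodium channels. The tables number the libraries 1 and 2 and do not name the treatment, so the values below are given by library number, and which library received amiloride is not assigned.

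The value for each exon is its inclusion level, the fraction of transcripts, corrected for the length of each form, that contain the exon between the flanking exons of the event. An exon listed in several events differs between them only in the flanking exons, and its level is the median over its events. The gap is the level in library 1 minus that in library 2, and a gap of at least 0.1 in size is called a gap exon. With 1 library per treatment there is no replicate error and no test, so every gap compares these libraries only. The reads behind a level were not used, its depth was therefore not examined, and a level of exactly 0 or 1 can rest on few reads. In exons long enough to hold a read, the inclusion form was credited with reads inside the exon as well as with those on its junctions. The tables hold no expression level, so the cell line was not checked against markers.

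Cells sense broken or stalled DNA through the kinases ATM and ATR, which act on the checkpoint kinases CHEK1 and CHEK2. Separate pathways then remove the lesion: mismatch repair corrects copying errors, the Fanconi anaemia pathway unhooks crosslinks between strands, homologous recombination copies an intact template, end joining ligates broken ends, excision repair replaces damaged bases or stretches, and translesion synthesis copies past damage. Many of these proteins are encoded by long genes with many short exons, and loss of an exon whose length is not a multiple of 3 shifts the reading frame.

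Splicing of a single exon is set by short sequences at its borders, the 3'SS before it and the 5'SS after it. The following exons are shown because their gaps were among the largest and the event ran between the exons directly before and after, except for FANCI and CHEK2, which had the largest gaps in each direction. Exon bases are in capitals, with 20 intron bases before and 6 after, on GRCh37.
FANCI exon 7 (chr15:89806650-89806691, plus strand): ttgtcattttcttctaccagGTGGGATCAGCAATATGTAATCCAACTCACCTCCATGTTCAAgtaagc
CHEK2 exon 12 (chr22:29091115-29091230, minus strand): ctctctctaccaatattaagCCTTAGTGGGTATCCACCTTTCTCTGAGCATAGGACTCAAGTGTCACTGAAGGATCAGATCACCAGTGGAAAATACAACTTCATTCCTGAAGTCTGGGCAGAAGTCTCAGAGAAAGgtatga
MLH3 exon 11 (chr14:75489517-75489595, minus strand): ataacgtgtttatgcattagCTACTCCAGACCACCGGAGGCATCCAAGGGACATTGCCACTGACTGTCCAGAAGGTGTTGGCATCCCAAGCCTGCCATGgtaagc
FANCM exon 3 (chr14:45609835-45609912, plus strand): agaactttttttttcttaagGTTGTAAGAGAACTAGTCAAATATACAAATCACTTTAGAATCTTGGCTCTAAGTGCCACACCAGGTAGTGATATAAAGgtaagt
RAD52 exon 10 (chr12:1023597-1023698, minus strand): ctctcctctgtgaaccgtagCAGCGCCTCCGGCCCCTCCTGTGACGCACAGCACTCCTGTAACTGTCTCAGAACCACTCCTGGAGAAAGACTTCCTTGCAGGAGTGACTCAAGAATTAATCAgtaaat
REV3L exon 15 (chr6:111686468-111686547, minus strand): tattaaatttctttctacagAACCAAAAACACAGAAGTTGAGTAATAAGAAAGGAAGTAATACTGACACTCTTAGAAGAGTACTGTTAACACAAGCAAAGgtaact
ATM exon 19 (chr11:108141791-108141873, plus strand): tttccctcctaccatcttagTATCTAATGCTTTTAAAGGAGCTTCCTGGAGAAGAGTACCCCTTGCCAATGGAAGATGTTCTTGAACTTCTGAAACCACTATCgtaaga
ERCC5 exon 5 (chr13:103508402-103508462, plus strand): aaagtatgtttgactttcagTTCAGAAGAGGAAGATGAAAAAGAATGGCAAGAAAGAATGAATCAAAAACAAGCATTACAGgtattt

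Splice sites were scored by how closely they match annotated human sites, over 9 bases at the 5'SS and 23 bases at the 3'SS, as a sum of log2 ratios in which a higher value is a closer match. Over all 631 exons the 5'SS had a mean score of 7.87 (SD 2.67), and the 3'SS one of 9.35 (SD 3.22). RAD52 exon 10 was below the mean at both sites, with a 5'SS score of 2.68 and a 3'SS score of 4.10. The 5'SS of ATM exon 19 scored 4.06, and the 3'SS of CHEK2 exon 12 and MLH3 exon 11 scored 2.55 and 3.09. FANCM exon 3 was above the mean at both, with 12.5 for the 5'SS and 12.0 for the 3'SS. The exons with large gaps thus included both weak and strong sites.

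Most exons of the repair genes were almost fully included in both libraries. The median level was 0.9985 in library 1 and 0.98 in library 2, and the lower quartile was 0.986 and 0.919. Over all listed exons the medians were 0.999 and 0.9695 and the lower quartiles 0.982 and 0.876. Library 1 had the higher level for 506 repair exons, library 2 for 108, and 17 were equal. That is 80.2% higher in library 1, beside 81.7% of all listed exons. A level of exactly 1 was listed for 297 of the 631 repair exons in library 1 and for 57 in library 2. Over all 67154 listed exons these counts were 32098 and 5895.

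A gap of at least 0.1 was found for 101 of the 631 exons, or 16.0% (95% Wilson interval 13.4 to 19.1%, counting error only), in 39 of the 57 genes, beside 23.5% of all exons listed. Of these, 95 were higher in library 1 and 6 in library 2. Library 1 was thus the higher in 94.1% of the gap exons, beside 88.6% of the gap exons among all listed exons. As shares of all listed exons, 20.8% were higher in library 1 by at least 0.1 and 2.68% in library 2. Gaps of at least 0.2 were found for 43 exons. The exons of 1 gene share its transcripts and are not independent of each other, and the difference from the background was not tested. A list of 71 other repair genes, such as MUTYH, POLB and DCLRE1C, had 69 genes in the table with 484 exons, of which 106 (21.9%, interval 18.4 to 25.8%) were gap exons, 104 of them higher in library 1.

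By pathway, the share of gap exons ran from 7.79% for end joining (6 of 77) to 24.2% for translesion synthesis (8 of 33). Over all listed exons it was 23.5%. The Fanconi anaemia genes had 31 of 138 (22.5%), mismatch repair 8 of 47 (17.0%), damage signalling 14 of 85 (16.5%), homologous recombination with its helicases 16 of 100 (16.0%), nucleotide excision repair 11 of 81 (13.6%), and base excision and single-strand break repair 7 of 70 (10.0%). All intervals were wide: 3.62 to 16.0% for end joining and 12.8 to 41.0% for translesion synthesis, which overlap. All 9 Fanconi genes and all 3 translesion genes had a gap exon, beside 7361 of 11945 genes when each listed exon is counted under 1 gene. In 18 genes no exon had a median over events that reached the threshold. Of these, 9 had a single event that did: MSH3, NBN, XRCC6, ERCC1, XPA, XPC, XRCC1, LIG3 and PARP1. No skipped-exon event did in ATR, MDC1, MSH6, RAD50, XRCC3, RECQL, XRCC4, XRCC5 and ERCC4.

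**Figure D1:**
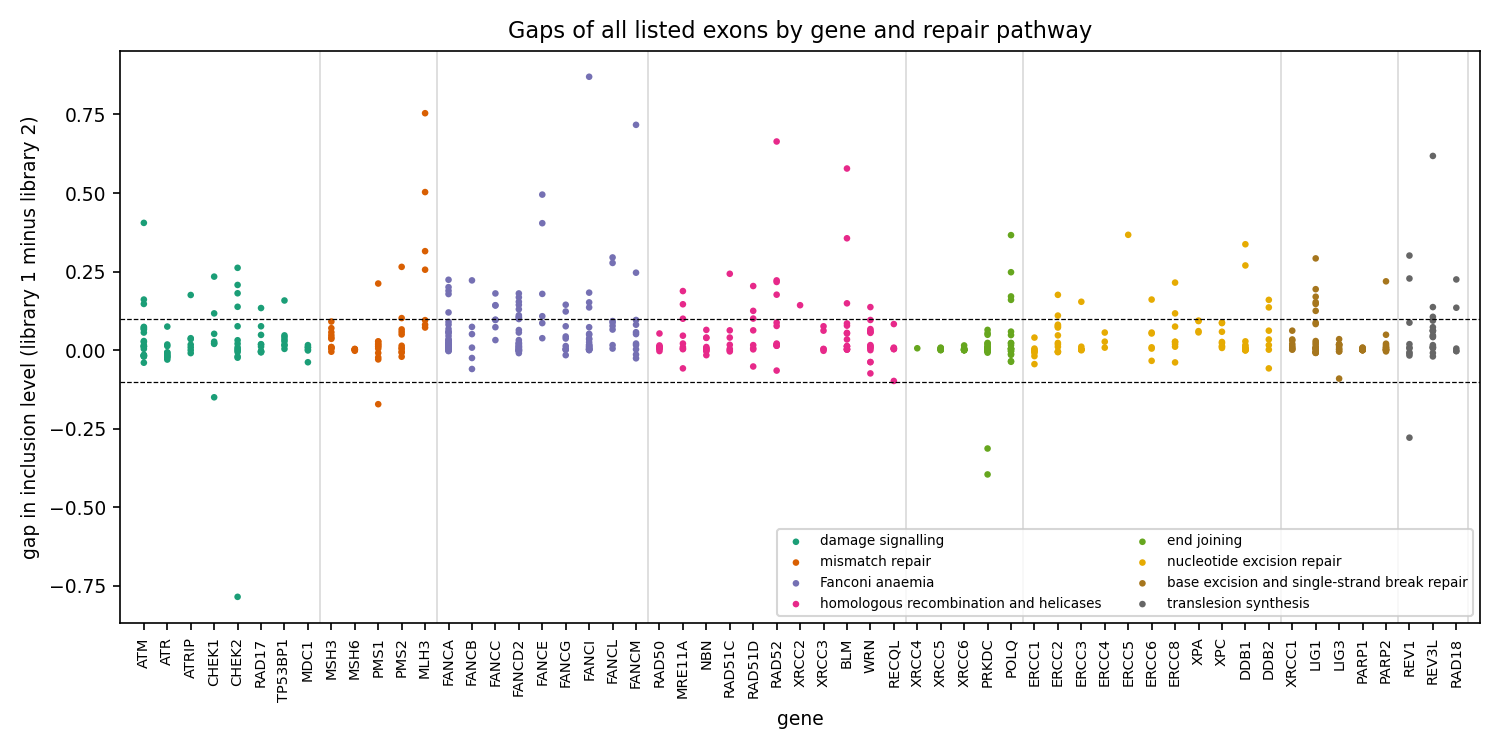
Gap in inclusion level (y axis, library 1 minus library 2) of each listed exon, grouped by gene (x axis) and coloured by repair pathway, with dashed lines at gaps of 0.1 in size. FANCI, MLH3 and FANCM hold the largest positive gaps, CHEK2 the largest negative one, and every point of PARP1, XRCC5 and XRCC6, each the median over the events of an exon, lies near 0.

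Damage signalling held gap exons in both directions. ATM, the kinase that responds to double-strand breaks, had 22 listed exons and 3 gap exons, led by exon 19, with 1 in library 1 and 0.595 in library 2. ATM exons 15 and 39 had levels of 1 in library 1 and of 0.839 and 0.853 in library 2. ATR, which responds to stalled forks, had none among 11 exons, with gaps from -0.03 to 0.075, and its partner ATRIP had 1 of 7. RAD17, the clamp loader of the checkpoint, had 1 of 10, in its 5' UTR.

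CHEK2, a checkpoint kinase downstream of ATM, had 5 gap exons of 14 and carried the largest gap in favour of library 2. Exon 12 had a level of 0.08 in library 1 and 0.865 in library 2, a gap of -0.785, in its single event, which runs from exon 9 to exon 14 and so leaves out exons 10, 11 and 13 in both forms. Junction reads of this event leave those exons out, but reads inside exon 12 can also come from transcripts that contain them. The level is therefore not confined to transcripts that lack those exons. Exons 3, 8, 9 and 13 of CHEK2 went the other way: exon 9 was at 1 in library 1 and 0.738 in library 2, and exon 8 at 0.939 and 0.758. CHEK2 has near-identical copies elsewhere in the genome, so its reads may be shared with them.

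CHEK1, the checkpoint kinase downstream of ATR, had 3 gap exons among 7. Exon 8 (chr11:125507344-125507439) was at 0.997 in library 1 and 0.763 in library 2, and exon 7 at 0.991 and 0.874. Exon 3 (chr11:125497502-125497725) was instead lower in library 1, at 0.704 against 0.854. TP53BP1, a chromatin-bound mediator at breaks, had 1 gap exon of 8, exon 5, at 1 and 0.842, while MDC1, another mediator, had none of 6.

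In mismatch repair the gaps centred on MLH3, a MutL homolog, in which 4 of 7 listed exons had a gap, all of at least 0.2. Exon 11 was at 1 in library 1 and 0.246 in library 2, in an event between exons 10 and 12. Exon 4 (chr14:75508318-75508403) was at 1 and 0.497, although its event runs from exon 3 to exon 10. Exon 5 was at 1 and 0.685, and exon 8 at 1 and 0.744. All 4 stood at 1 in library 1. Exon 7 of MLH3 was partly skipped in both libraries, at 0.514 and 0.442.

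MSH6, a mismatch recognition protein, had 6 listed exons with gaps from -0.002 to 0.004 in the medians over events, and MSH3, which recognises larger loops, 11 exons with gaps up to 0.091. PMS2, another MutL homolog, had 2 gap exons of 11, of which exon 4 (chr7:6043321-6043423) was at 0.948 and 0.683; PMS2 also has near-identical copies in the genome. PMS1 had 2 of 12, 1 in each direction: exon 8 was at 1 and 0.788, and a 126-base exon outside the canonical transcript (chr2:190650072-190650197) was at 0.828 and 1.

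The Fanconi anaemia genes had 31 gap exons, all higher in library 1, beside 88.6% of the gap exons among all listed exons. Of their 138 exons 125 (90.6%) were at a higher level there, beside 81.7% of all listed exons. All gap exons of homologous recombination, nucleotide excision repair, and base excision and single-strand break repair were also higher in library 1. FANCI, which is ubiquitinated together with FANCD2 when a crosslink is met, had 4 gap exons of 23 and the largest gap of all. Its exon 7, of 42 bases and so in frame, was at 1 in library 1 and 0.13 in library 2. The event of this exon runs from exon 4 to exon 11, a skip of 6 exons in all, and its other form joins exon 7 directly to exons 4 and 11. No event between exons 6 and 8 was listed, so transcripts that join exon 7 to both of these have no level here. In their own events, exons 5, 6, 9 and 10 were at 0.9945, 0.9775, 0.991 and 0.9665 in library 2. FANCI exons 8, 16 and 17 were at or near 1 in library 1 and at 0.847, 0.864 and 0.817 in library 2.

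FANCM, the translocase that recruits the complex to DNA, had 2 gap exons of 11, with a gap of 0.717 at exon 3, from 0.97 in library 1 to 0.253 in library 2, between exons 2 and 4. This exon of 78 bases keeps the frame. FANCM exon 16 (chr14:45650840-45650908) was at 0.99 and 0.7435, as the median of 2 events with gaps of 0.074 and 0.419.

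FANCE, which links FANCD2 to the core complex, had 4 gap exons among 6. Exon 9 (chr6:35430566-35430691) was at 0.975 in library 1 and 0.48 in library 2. The value turned on the flanking exons: the gap was 0.057 between exons 8 and 10, with levels of 0.975 and 0.918, but 0.56 between exons 7 and 10 and 0.52 between exons 6 and 10. Exon 8 (chr6:35428329-35428395) was at 0.9415 and 0.5375, with a gap of 0.149 between exons 7 and 9 and of 0.659 between exons 7 and 10. The larger gaps thus came from forms that lack several neighbouring exons.

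FANCL, the ubiquitin ligase of the pathway, had 2 gap exons of 8 and showed the same dependence. Exon 10 (chr2:58390164-58390209) was at 0.9495 in library 1 and 0.6545 in library 2, but between exons 9 and 11 the levels were 0.994 and 1, and between exons 9 and 12 they were 0.905 and 0.309. Exon 11 was at 0.956 and 0.6785. Skipping of exons 10 and 11 together, not of exon 10 alone, carried the gap.

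FANCD2 had the most gap exons of any gene, 8 of 31 (25.8%, interval 13.7 to 43.2%), a share near the 23.5% of all listed exons. Its gaps ran from 0.105 to 0.1805. Exons 39 to 42 were a run of 4 neighbours, with levels in library 2 from 0.7705 to 0.895. FANCD2 exon 16 (chr3:10089601-10089735) was below 0.5 in both libraries, at 0.49 and 0.346, in an event from exon 14 to exon 18. FANCD2 has near-identical copies in the genome, so shared reads could enter these levels. FANCA, the largest core member by number of exons, had 5 of 36, from exon 10 (0.776 in library 2) to exon 38 (0.8215), all at 1 in library 1. FANCC had 3 of 7, FANCG 2 of 10 and FANCB 1 of 6.

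In homologous recombination, RAD52, which anneals single strands, led with 4 gap exons of 12. Exon 10 was at 0.736 in library 1 and 0.072 in library 2, so it was mostly retained in 1 library and mostly skipped in the other, between exons 9 and 11. Exon 3 was at 1 and 0.783, and exon 5 (chr12:1038985-1039052) at 1 and 0.778. A longer form of exon 5, with 55 further bases at its 3' end, was at 1 and 0.8235 as a skipped exon.

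BLM, the helicase that dissolves recombination intermediates, had 3 gap exons of 15, among them 2 forms of exon 6 that share the 5'SS AAGgtatct and differ in the 3'SS. They are shown because both had large gaps, with exon bases in capitals.
BLM exon 6, 133 bases (chr15:91303377-91303509): acaacataattattttatagCTA
BLM long form, 299 bases (chr15:91303211-91303509): ttttttttttttagtgacagGGT
The 133-base exon was at 0.986 in library 1 and 0.63 in library 2, and the 299-base form at 0.955 and 0.377. Its 3'SS scored higher, at 13.9 against 5.14. In the table of alternative 3'SS, however, the long form was at only 0.009 in library 1 and 0.038 in library 2 against the short one, and as a skipped exon it shares its last 133 bases and its 5'SS with the short form.

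Proteins that help form the recombination filament on single-stranded DNA had gap exons in RAD51C (1 of 7), RAD51D (3 of 8) and XRCC2 (1 of 1), and none of 5 in XRCC3. RAD51D exon 3 (chr17:33445520-33445638) was at 0.697 in library 1 and 0.493 in library 2, with gaps of 0.12 to 0.286 over its 4 events. RAD51C exon 7 was at 0.985 and 0.742, with gaps over 4 events from -0.006 to 0.757. XRCC2 exon 2 was at 0.853 and 0.71. Of the complex that resects breaks, MRE11A (now MRE11) had 3 of 9, among them exon 5 at 0.911 and 0.723, while RAD50 and NBN had none of 10 each. WRN, a helicase and exonuclease, had 1 of 16, and the helicase RECQL none of 7.

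End joining had the fewest gap exons for its number of exons. The Ku subunits XRCC5 and XRCC6, which hold broken ends, had 8 and 11 listed exons with gaps of 0 to 0.008 and 0 to 0.015 in the medians over events, and the largest gap of a single event was 0.084 in XRCC5 and 0.201 in XRCC6. XRCC4, the partner of the ligase, had 1 exon with a gap of 0.006. PRKDC, the kinase that Ku recruits, had 38 exons, the most of any gene, and 2 gap exons, both higher in library 2. Exon 5 (chr8:48866898-48867006) was at 0.6045 and 1, and exon 3 (chr8:48869731-48869823) at 0.682 and 0.995. Neither gap held in the event with the nearest flanking exons: exon 5 was at 0.998 and 1 between exons 4 and 6, and exon 3 at 1 and 0.99 between exons 1 and 4. The low levels in library 1, 0.211 and 0.364, came from events that span more exons.

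POLQ, the polymerase of end joining by microhomology, held the other 4 gap exons among its 19, all higher in library 1. Exon 21 (chr3:121192197-121192334) was at 0.968 in library 1 and 0.602 in library 2 between exons 20 and 22. Exon 25 was at 0.98 and 0.732, exon 22 at 0.982 and 0.811, and exon 3 at 0.988 and 0.828.

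Nucleotide excision repair showed few large gaps. The endonuclease ERCC5 had 1 listed exon, exon 5, which was at 1 in library 1 and 0.633 in library 2. DDB1, an adaptor of the damage-binding complex, had 2 of 15: exon 3 (chr11:61097430-61097546) was at 0.9945 and 0.6575 as the median of 4 events, with gaps of 0.002 and 0.018 where exon 2 was the exon before and of 0.659 and 0.246 where exon 1 was. The gap of DDB1 exon 3 was thus present only in events that also left out exon 2. DDB2, its partner, had 2 of 7, exon 7 at 0.954 and 0.818 and exon 9 at 1 and 0.84. ERCC8 had 2 of 8: exon 5 was at 0.995 and 0.78 and exon 6 at 1 and 0.883, and ERCC2, ERCC3 and ERCC6 had 2 of 13, 1 of 8 and 1 of 6, with gaps from 0.11 to 0.176. XPA and XPC, which verify and recognise lesions, had none of 4 and 8, and the nuclease subunits ERCC1 and ERCC4 none of 8 and 3.

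In base excision and single-strand break repair the gaps fell almost wholly on LIG1, the ligase of replication. It had 6 of 22 exons (27.3%, interval 13.2 to 48.2%), a share near the 23.5% of all listed exons. Among the 6 was a 1156-base form of exon 24, at 1 and 0.83. As an alternative 5'SS this form was at only 0.019 and 0.012, and the 153-base exon 24 was at 1 and 0.991 as a skipped exon. Exon 10 (chr19:48647140-48647220) was at 1 in library 1 and 0.708 in library 2, in an event from exon 6 to exon 14. Exon 13 was at 0.944 and 0.75. PARP2 had 1 gap exon of 13, exon 6, at 0.995 and 0.776. PARP1, the main sensor of nicks, had 15 exons in 53 events, with gaps of 0 to 0.008 in the medians over events. Single events of PARP1 that span several exons reached further: exon 20 (chr1:226551644-226551771) was at 1 in library 1 and 0.2 in library 2 between exons 18 and 22, and exon 5 at 1 and 0.471 between exons 3 and 7. Neither LIG3 (11 exons) nor XRCC1 (9 exons) had a gap exon.

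Translesion synthesis had 8 gap exons of 33. REV3L, the catalytic subunit of polymerase zeta, had 3 of 18 and was at 0.948 in library 1 and 0.33 in library 2 at exon 15, between exons 14 and 16. REV1, which scaffolds these polymerases, had 3 of 10 and was at 0.993 and 0.692 at exon 14 (chr2:100027157-100027329) and at 1 and 0.772 at exon 2. REV1 exon 3 (chr2:100078958-100079084) was at 0.5 and 0.7785, as the median of events with gaps of -0.675 and 0.118. RAD18, which ubiquitinates PCNA at stalled forks, had 2 of 5 and was at 1 and 0.775 at exon 8 and at 1 and 0.865 at exon 9.

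**Figure D2:**
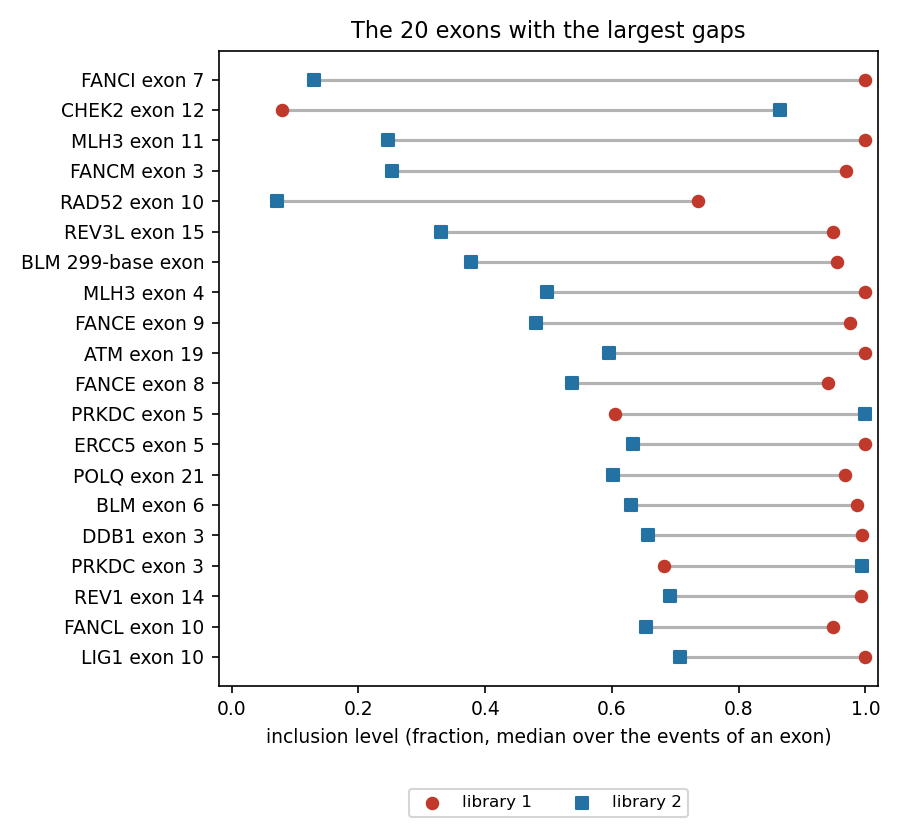
Inclusion level (x axis, fraction) in library 1 (circles) and library 2 (squares) of the 20 exons with the largest gaps, at most 2 per gene, joined by a line. Library 1 is the higher in 17 exons, and CHEK2 exon 12 and PRKDC exons 3 and 5 are the exceptions.

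The events show how far a gap belongs to an exon alone. Of the 101 gap exons, 58 had 1 event and 43 had several. Among those 43, every event had a gap of at least 0.1 in 9, and all events had the same sign in 33. An event between both neighbouring exons of the canonical transcript was listed for 62 gap exons, and the gap in that event was at least 0.1 for 46. Over the 459 repair exons with such an event, 53 (11.5%) had a gap of at least 0.1 in it, beside 19.6% of all 47106 listed exons with an event of this kind. The difference from that background was not tested. Therefore for 16 of the 62 the gap came from other events, and whether those left out further exons was not counted.

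Some gap exons also lay next to each other. Of 91 gap exons of the canonical transcripts that were higher in library 1, 29 lay in 13 runs of neighbouring exons in 12 genes, including FANCE exons 7 to 9, FANCL exons 10 and 11, MLH3 exons 4 and 5, RAD18 exons 8 and 9, and POLQ exons 21 and 22. Neighbouring exons share splice junctions, so their levels are not separate measurements. Such runs were not counted over all listed exons, so no background share is given.

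Gap exons were compared with the other repair exons in what the selection had not used. Their median length was 100 bases against 123. Of the coding gap exons 33 (35.1%, interval 26.2 to 45.2%) had a length that is a multiple of 3, against 179 (36.3%, 32.2 to 40.6%) of the others. The mean 5'SS score was 7.95 (SD 2.18, n = 101) against 7.86 (SD 2.76, n = 530), and the mean 3'SS score was 8.64 (SD 3.0) against 9.48 (SD 3.25). The difference was 0.09 (SE 0.25) for the 5'SS, with no constant sign over the settings tried, and -0.84 (SE 0.33) for the 3'SS, and neither was tested, since exons of 1 gene are not independent. The last exon base was a G in 79.2% of gap exons and 84.0% of the others. GENCODE lists a transcript that skips the exon for 54.5% of gap exons and 39.2% of the others.

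Another group of exons was only partly included whichever library was read. Levels below 0.9 in both libraries were found for 29 exons (4.60%) in 19 genes, beside 9.82% of all exons listed, and 10 of the 29 were gap exons. GENCODE lists a skipping transcript for 86.2% of them. Below 0.5 in both were 13 exons, 10 of them outside the canonical transcript, with gaps of at most 0.144.

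The lowest levels belonged to exons outside the canonical transcripts. A 114-base exon of CHEK2 (chr22:29117506-29117619), between exons 4 and 5, was at 0.019 in library 1 and 0.01 in library 2, and a 218-base exon of ERCC8 (chr5:60220118-60220335) at 0.012 and 0.051. The 110-base exon of BLM (chr15:91267265-91267374), which no GENCODE transcript of the gene contains, was at 0.134 and 0.056. A 76-base exon of RAD52 (chr12:1045973-1046048) was at 0.072 and 0.137.
RAD52 76-base exon, 3'SS: acccagacgtgtttgatcagCCC
RAD52 76-base exon, 5'SS: TGTgtaaga
The sites of the RAD52 exon scored -0.10 and 4.10, both below the means given above. RAD51D and REV3L each had such an exon as well, at 0.184 and 0.236 and at 0.326 and 0.189.

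Some exons of the canonical transcripts were also low. DDB2 exon 5 (chr11:47256124-47256223) was at 0.149 in library 1 and 0.133 in library 2, in an event from exon 3 to exon 8. The junctions of that event leave out exons 4, 6 and 7, while reads inside exon 5 can come from transcripts with them. RAD17 exon 3 (chr5:68667281-68667384), in the 5' UTR, was at 0.304 and 0.17, with gaps from -0.218 to 0.209 over 3 events. ERCC1 exon 9 (chr19:45916935-45917003), of 69 bases, was at 0.637 and 0.646, and exon 8 at 0.846 and 0.865. The levels of ERCC1 exons 8 and 9 were thus nearly the same in both libraries, while single events of exon 4 had gaps from -0.153 to 0.064.

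NBN, which brings ATM to breaks, had a 50-base exon between exons 2 and 3 (chr8:90994181-90994230) that was at 0.157 in library 1 and 0.173 in library 2, a gap of -0.016. Its other exons had gaps no larger than 0.0645 in the medians over events. Single events of NBN exon 14 had gaps from -0.277 to 0.389.

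Other kinds of event were fewer. For mutually exclusive exons 58 of 409 events (14.2%, interval 11.1 to 17.9%) had a gap of at least 0.1, beside 17.9% of that table, with library 1 higher in 35 and library 2 in 23. The level is here the share of the form with the exon that comes first along the transcript. RAD52 had the largest gap, 0.243 in library 1 and 0.764 in library 2, for a 119-base exon (chr12:1036311-1036429) against a 76-base exon (chr12:1034616-1034691). FANCE followed with 0.323 and 0.67 for exon 7 against exon 9, and MLH3 with 0.437 and 0.743 for a 99-base exon (chr14:75509082-75509180) against exon 8.

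Alternative 5'SS gave 3 of 18 events with a gap of at least 0.1, beside 32.1% of that table. RAD52 exon 5 held 2 of the 3, with opposite signs. Joined to the exon at chr12:1034616-1034691, the form with 55 more bases was at 1 in library 1 and 0.41 in library 2, and joined to the exon at chr12:1036311-1036429 it was at 0.157 and 0.716. ERCC3, a helicase of TFIIH, had the third, a site 62 bases downstream that was at 0.077 and 0.337.

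Alternative 3'SS gave 2 of 9 events, beside 28.0% of that table. PMS2 used a site 5 bases upstream (chr7:6045523-6045662) at 0.81 in library 1 and 0.918 in library 2, and XRCC3 a site 37 bases upstream at 0.124 and 0.022. The next gap was that of MSH6, at 0.902 and 0.967 for a form with 4 more bases (chr2:48025750-48028294). Other pairs also lay within a few bases: for REV1 a form with 3 more bases was at 0.529 and 0.574, and for LIG1 a form with 3 more bases was at 0.682 and 0.692. Retained introns were listed for RECQL, at 0.583 and 0.674, and ERCC2, at 0.153 and 0.209, and neither reached a gap of 0.1, beside 36.5% of that table.

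At the threshold itself, the exons just inside were MRE11A exon 14 (0.1), RAD51D exon 7 (0.1005) and PMS2 exon 8 (0.102). Those just outside were FANCC exon 13 (0.097), an exon of RECQL of 46 bases (-0.098) and FANCD2 exon 37 (0.099).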

How the data were processed

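Per the labels, reads were aligned with STAR 2.5.1 to hg19 (GRCh37). The authors ran rMATS and deposited 5 tables (skipped exons, mutually exclusive exons, alternative 5'SS and 3'SS, retained introns) with the inclusion level of each library as a fraction with 3 decimals. The rMATS version and annotation are not given in the sources used here. The effective lengths in bases that the authors deposited for each form served only to learn which reads were counted: in 100% of long exons the inclusion length is the skipping length plus the exon. For mutually exclusive exons the inclusion form was, by these lengths, that of the exon first along the transcript in 100% of events of unequal exons. The tables also hold the authors' p-values, FDR and level differences, which were not used. Their 20 columns of reads, counted over the 5 tables, were not used either.

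Levels were joined by chromosome, strand, start and end (1-based), with the median over events. MRE11A was matched to MRE11. Exon numbers follow the transcript tagged canonical by Ensembl in GENCODE 44, mapped back to GRCh37. Of the listed exons 98.9% lay between AG and GT. Site scores use base frequencies at 300873 annotated 5'SS and 300290 3'SS with a pseudocount of 0.5. No difference was tested and no p-value is given, with 1 library per treatment. Intervals are 95% Wilson intervals.

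The genes, pathways and lists were chosen with earlier results of these data known. The text names the 20 exons with the largest gaps, at most 2 per gene and at 0 in neither library, the largest per pathway, the 10 lowest, at most 1 per gene, every gene by its counts, and the 3 largest gaps per other table; other exons were chosen after their values were seen. So were the values between canonical neighbours, the runs of neighbours and the last base. Python 3.11.15, numpy 2.4.6, pandas 2.3.3, pyfaidx 0.9.0.4, samtools 1.23.1 and matplotlib 3.10.9 were used.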

Additional observations from a re-analysis of the deposited data

How the results depend on the processing

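The share of gap exons, 16.0% of the repair exons, was 31.7% at a gap of at least 0.05 (36.9% of all exons), 6.81% at 0.2 (11.9%), and 13.3% with the event of the nearest flanking exons (20.6%); the shares over all exons were added after seeing the data. It lay between 15.0 and 18.9% in the other settings. The share of gap exons higher in library 1 ranged from 90.7 to 96.0%. For exons strictly between 0 and 1 in both libraries the medians were 0.988 in library 1 and 0.957 in library 2, and 9.82% were below 0.9 in both. The median in library 2 was 0.985 with the nearest flanking exons and also with exons of 1 event.

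At 0.05 the shares of events were 44.4% for alternative 5'SS, 28.4% for mutually exclusive exons and 100% for the 2 retained introns. At 0.2 they were 3.18% for mutually exclusive exons and 0% for alternative 3'SS. For these kinds of event the shares over the whole tables were computed only at 0.1. Of the exons of other repair genes 36.6% had a gap at 0.05, beside 36.9% of all exons, and 9.50% at 0.2, beside 11.9%. When strictly between 0 and 1 in both libraries the share was 26.6%, beside 27.0% of all exons. The difference in mean 5'SS score, 0.09 higher in gap exons, turned to -0.21 at a gap of at least 0.2 and -0.17 for exons of 1 event, and the cause was not tested. With the nearest flanking exons PRKDC exon 3 turned from -0.313 to 0.01 and FANCL exon 10 from 0.295 to -0.006, since these events leave out fewer exons.

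No paired analysis was possible because each treatment has 1 library, and leaving out a library leaves no gap. Depth was not examined, so the precision of a single level is not given.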
